A study of Mus musculus with 15 samples.

Results

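The genes described here are 6 ADAMTS proteases (*Adamts1*, *Adamts2*, *Adamts4*, *Adamts5*, *Adamts9* and *Adamts12*) and the 4 TIMP inhibitors (*Timp1*, *Timp2*, *Timp3* and *Timp4*). They were chosen by name and matched by gene symbol among the 24134 genes of each of a pair of count tables. All 10 had a row in both tables, and 9 had enough reads to be tested. *Timp4*, with 1 to 25 counts per library, was below the filter on low counts.

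The cells were unpassaged primary articular chondrocytes, freed by collagenase from the femoral condyles and tibial plateaus of neonatal ICR mice, and all groups were wild type. In the drug table, 3 libraries each came from chondrocytes kept for 108 h in DMSO, in 10 μM XAV939 or in 10 μM IWR-1. In the siRNA table, 3 libraries came from control siRNA (siCtrl) and 3 from a combined *Tnks* plus *Tnks2* transfection (siTnks/2), for which no time is stated. The question was how these transcripts responded when tankyrase, the enzyme encoded by *Tnks* and *Tnks2*, was depleted or inhibited. Each gene was knocked down with a single siRNA sequence, the animals behind each library are not described in the labels, and RNA was taken from whole cultures, so that fewer cells of a type and less RNA per cell cannot be told apart.

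ADAMTS enzymes are secreted zinc proteases that carry thrombospondin repeats and cut matrix proteins outside the cell. ADAMTS4 and ADAMTS5 are the main aggrecanases of cartilage, and they remove the aggrecan that gives the tissue its resistance to compression. TIMPs are small secreted proteins that plug the active site of metalloproteinases, and TIMP3, which stays bound to the matrix, is the family member known to inhibit ADAMTS4 and ADAMTS5. XAV939 and IWR-1 both occupy the catalytic domain of tankyrase, XAV939 at the nicotinamide site and IWR-1 at the neighbouring adenosine site.

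The libraries held 26857070 to 36615194 counts. Levels are given in CPM, the usual count scaled to a common library total. In the knockdown check *Tnks* was at 69.0, 58.4 and 70.1 CPM in siCtrl and at 19.5, 12.7 and 24.0 CPM in siTnks/2, a log2 fold change of -1.81 (SE 0.22). *Tnks2* was lower by a log2 fold change of -1.10 (SE 0.11), and the groups did not overlap for either gene. All 12 chondrocyte markers were detected in each library. Their summed level was 27730 to 37580 CPM in DMSO, 38000 to 57740 CPM with XAV939, 91530 to 116600 CPM with IWR-1, 87980 to 117600 CPM in siCtrl and 125200 to 203300 CPM in siTnks/2. Marker genes said to rise or fall were called, as defined below. Of all genes tested, 36.4% were called with IWR-1, 17.4% with XAV939 and 18% after knockdown. With the replicate number as a block these shares were 47.5%, 33.4% and 34.6%. With IWR-1 12 of the 12 chondrocyte markers rose, and with XAV939 3 rose and 0 fell (10 and 0 with the block). After knockdown 4 of them rose and 0 fell (9 and 0 with the block). The 11 fibroblast markers went the other way in the drug table: their summed level was 18090 to 19490 CPM in DMSO, 9840 to 12540 CPM with XAV939, where 6 fell and 1 (*Postn*) rose, and 7871 to 10630 CPM with IWR-1, where 8 fell and 1 (*Postn*) rose. In the siRNA table this sum was 6270 to 9895 CPM in siCtrl and 4183 to 8799 CPM in siTnks/2. The 10 osteoblast markers summed to 12590 to 16550 CPM in DMSO, 12460 to 13000 CPM with XAV939, 4973 to 6290 CPM with IWR-1 and 4715 to 6239 CPM in the siRNA table. The osteoblast genes did not follow their sum: with IWR-1 4 rose (*Sp7*, *Bglap2*, *Bglap* and *Alpl*) and 2 fell (*Spp1* and *Col1a1*, the latter also in the fibroblast list), with XAV939 3 rose and 1 (*Col1a1*) fell, and after knockdown 2 rose and 0 fell (5 and 0 with the block). The 12 leukocyte markers summed to at most 62.8 CPM and the 10 endothelial markers to at most 152 CPM. Of the leukocyte genes, *Laptm5* reached 53.8 CPM and *Cd14* 30.7 CPM, whereas *Ptprc* and *Cd3e* never passed 0.157 and 0.0314 CPM. *Laptm5* rose in all 3 comparisons with a control. With IWR-1 3 of the 6 leukocyte genes tested fell, with XAV939 0 fell, and after knockdown 1 (*Cd14*) of 4 fell. Of the endothelial genes, *Eng* reached 147 CPM and *Cdh5* never passed 2.28 CPM. With IWR-1 2 of the 3 endothelial genes tested fell, with XAV939 1 of 3 fell, after knockdown 0 of 4 fell, and 0 rose in each. The red cell globins *Hba-a1*, *Hbb-bs* and *Hbb-bt* were at 0 in all libraries. The chondrocyte and fibroblast sums moved with both inhibitors and the osteoblast sum with IWR-1, and the chondrocyte sum also rose after knockdown without overlap. The part of these sums in the inhibitor and knockdown results below was not tested. One knockdown library, siTnks/2 replicate 2, had the lowest *Tnks*, the highest chondrocyte sum and the lowest fibroblast sum of its group. Among the controls, siCtrl replicate 2 likewise had the lowest *Tnks* (58.4 CPM), the highest chondrocyte sum (117600 CPM) and the lowest fibroblast sum (6270 CPM). The knockdown values of the tested members are given with and without siTnks/2 replicate 2, and siCtrl replicate 2 was kept in both.

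Gene positions are given in GRCm38 (mm10). *Adamts1* (chr16:85793827-85803113) and *Adamts5* (chr16:85856173-85901828) are neighbours on the minus strand, 53059 bp apart, with no coding gene between them. *Timp1* (chrX:20870166-20874735), *Timp3* (chr10:86300372-86349506) and *Timp4* (chr6:115241892-115252205) each lie inside a synapsin gene on the opposite strand, *Syn1*, *Syn3* and *Syn2* respectively. Annotated exons of *Timp1* and *Syn1* share 0 bp, those of *Timp3* and *Syn3* share 1733 bp, and those of *Timp4* and *Syn2* share 90 bp. *Adamts4* lies at chr1:171250421-171260637. The kit marks strand, but the strand setting of the counting is not given in the sources used here, so reads of a TIMP gene and its host may not be told apart.

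The RefSeq promoter table held 8 of the 10 members, without *Adamts4* and *Adamts5*. The stretches before the start are printed for *Timp3*, the member with the largest rise, for *Timp1*, its counterpart inside another synapsin gene that fell in the same libraries, and for *Adamts1*, which fell with both inhibitors. They read 5′ to 3′ on the gene's own strand in GRCm38.p6, and capitals mark GGGCGG or its reverse complement CCGCCC, the core letters of an Sp1 site.
*Timp3* (chr10:86300162-86300371, plus strand): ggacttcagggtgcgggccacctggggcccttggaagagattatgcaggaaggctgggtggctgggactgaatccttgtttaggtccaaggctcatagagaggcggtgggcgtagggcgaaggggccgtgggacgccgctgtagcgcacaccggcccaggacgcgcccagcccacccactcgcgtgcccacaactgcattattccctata
*Timp1* (chrX:20869916-20870165, plus strand): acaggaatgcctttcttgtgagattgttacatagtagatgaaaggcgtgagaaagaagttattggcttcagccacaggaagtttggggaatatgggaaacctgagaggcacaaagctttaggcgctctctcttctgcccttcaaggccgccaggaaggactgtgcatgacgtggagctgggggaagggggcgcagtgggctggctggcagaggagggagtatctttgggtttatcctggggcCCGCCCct
*Adamts1* (chr16:85803114-85803363, minus strand): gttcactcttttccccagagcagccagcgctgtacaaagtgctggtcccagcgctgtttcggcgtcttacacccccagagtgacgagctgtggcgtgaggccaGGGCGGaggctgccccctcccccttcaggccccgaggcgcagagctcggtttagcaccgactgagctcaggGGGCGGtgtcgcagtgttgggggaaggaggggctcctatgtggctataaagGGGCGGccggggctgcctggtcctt
The *Adamts1* stretch holds 3 such matches and the *Timp1* stretch 1, which begins 8 bases before the start. *Timp3* has a match that begins 15 bases before the RefSeq start, beyond the printed stretch, which ends at the first transcript start of either annotation. In the 250 bases before the start, Sp1 letters were found in 6 of the 8 members and in 32.7% of 32851 promoters. The letters TGANTCA (AP-1) were found in 0 of 8 members and in 6.7% of all promoters, and CTTTGA (TCF/LEF) in 0 of 8 and in 13.8%, each searched on both strands. A match is a description of the letters, and its absence says nothing about the factor.

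Called here means a Benjamini-Hochberg adjusted p under 0.05 over all genes tested in edgeR's quasi-likelihood test. With XAV939, 5 of the 9 tested members were called and all 5 were lower than in DMSO, where 17.4% of all 13873 genes tested were called in either direction. With IWR-1, 7 of 9 were called, 6 lower and 1 higher, against 36.4% of all genes. After knockdown 1 of 9 was called, higher, against 18% of 13672 genes. The median log2 fold change of the 9 members was -0.48 with XAV939, -0.67 with IWR-1 and -0.22 after knockdown, whereas the median over all genes tested lay within 0.02 of 0 in each comparison. Groups of 3 libraries did not overlap for 5 of 9 members with XAV939 (33.2% of all genes), for 7 of 9 with IWR-1 (51.1%) and for 4 of 9 after knockdown (43.8%). Without siTnks/2 replicate 2, and with siCtrl replicate 2 kept, the knockdown median of the 9 members was -0.04. That is the value of *Timp2*, and that of *Timp3* was -0.03.

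**Figure D1:**
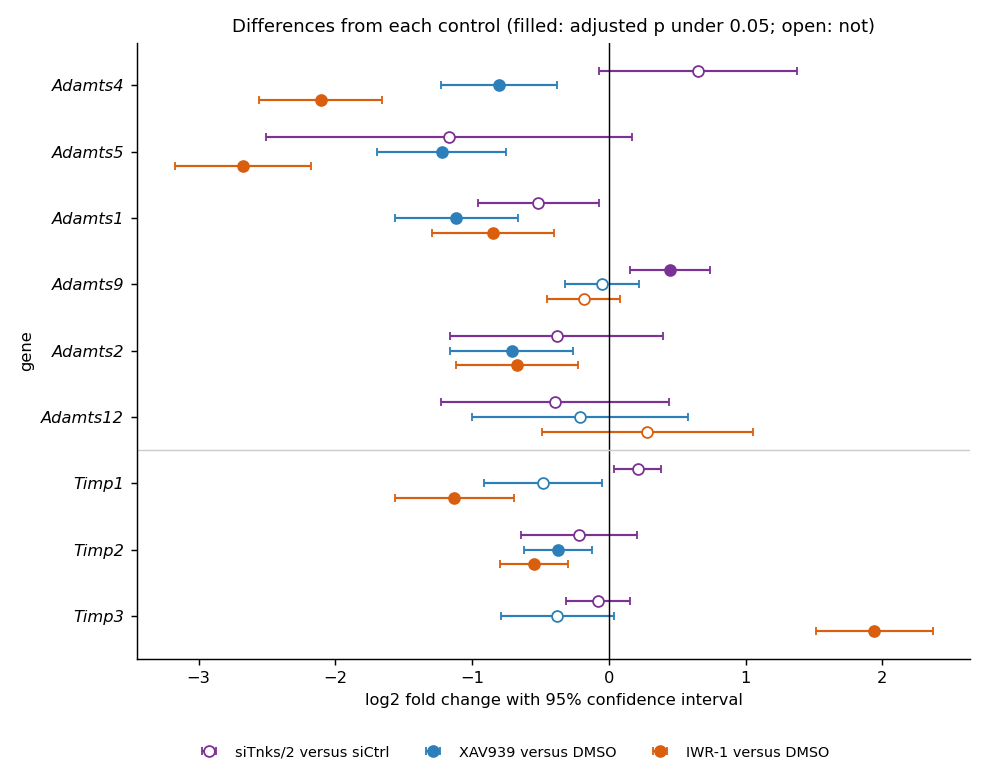
Log2 fold change (x axis) of the 9 tested members (y axis) for each treatment against its own control, with 95% confidence intervals. Filled points were called in edgeR's test: 1 purple (siTnks/2), 5 blue (XAV939) and 7 orange (IWR-1) points, with *Timp3* at 1.94 as the single filled orange point right of 0.

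With the replicate number as a block, 4 members were called after knockdown (*Adamts4* and *Adamts9* higher, *Adamts1* and *Adamts5* lower) against 34.6% of all genes, and 7 with XAV939 against 33.4%, the 2 added being *Timp1* and *Timp3*, both lower. IWR-1 stayed at 7. The study's stricter limit, a fold change above 3 with an adjusted p under 1e-05, was applied there to DESeq2 results. In edgeR's test 0 of 9 members were past it in each of the 3 comparisons. Of all genes, edgeR placed 1.05% past it for IWR-1, 0.00721% for XAV939 and 0% after knockdown, which are not the study's own shares. The counts of members at an unadjusted p under 0.05 were 7, 6 and 3 of 9. The share of all genes at that limit was not counted, so these counts have no background to stand against. For IWR-1, 3 members (*Adamts4*, *Adamts5* and *Timp3*) changed more than 3-fold with edgeR adjusted p-values of 1.25e-05 to 2.97e-05. By DESeq2's Wald test or with the replicate block these 3 were past the limit. The share of all genes past it in those fits was not counted.

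The aggrecanase transcripts *Adamts4* and *Adamts5* fell with both inhibitors and more with IWR-1. *Adamts5* stood at 135, 115 and 127 CPM in DMSO, at 55.9, 46.5 and 59.1 CPM with XAV939 and at 14.0, 16.8 and 28.1 CPM with IWR-1. The 3 groups were fully separated, in the order DMSO, XAV939, IWR-1. Against DMSO, *Adamts5* was 2.33-fold lower in XAV939-treated cells (log2 fold change -1.22, SE 0.21, edgeR adjusted p = 0.00331). IWR-1 lowered it 6.39-fold (-2.68, SE 0.23, adjusted p = 1.25e-05).

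*Adamts4* rests on fewer reads, 67 to 408 counts per drug library. It stood at 8.54, 11.3 and 12.8 CPM in DMSO, at 5.36, 6.57 and 6.73 CPM with XAV939 and at 1.95, 2.92 and 2.58 CPM with IWR-1, again without overlap between the groups. The fall was 1.75-fold with XAV939 (log2 fold change -0.80, SE 0.19, edgeR adjusted p = 0.0158) and 4.31-fold with IWR-1 (-2.11, SE 0.20, adjusted p = 2.53e-05). Without XAV939 replicate 1, the XAV939 call was lost (-0.71, adjusted p = 0.0625).

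Knockdown moved this pair in opposite directions, short of the threshold in edgeR's test without the replicate block and past it with the block. *Adamts5* was at 82.2, 61.9 and 81.6 CPM in siCtrl and at 47.6, 7.67 and 44.97 CPM in siTnks/2. All 3 knockdown libraries lay below the controls, and replicate 2 lay far below the other two, and edgeR gave -1.17 on the log2 scale with an SE of 0.56 (adjusted p = 0.186). With the replicate block it was -1.41 (adjusted p = 0.0481), and without siTnks/2 replicate 2 it was -0.70 (adjusted p = 0.0114). *Adamts4* was at 5.85, 2.96 and 5.69 CPM in siCtrl and at 8.26, 5.31 and 9.37 CPM in siTnks/2. The groups overlapped, but within each replicate number the knockdown library was the higher, and the log2 fold change of 0.65 (SE 0.30, adjusted p = 0.175) became 0.67 (SE 0.11, adjusted p = 0.0106) with the replicate block and 0.85 (adjusted p = 0.0609) without siTnks/2 replicate 2.

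*Adamts1*, which can cut both aggrecan and versican, was the most abundant ADAMTS member per length in every group. It stood at 143, 137 and 191 CPM in DMSO, at 52.9, 85.7 and 78.6 CPM with XAV939 and at 71.7, 86.0 and 104 CPM with IWR-1. Both inhibitor groups lay wholly below DMSO and overlapped each other. *Adamts1* was 2.17-fold lower with XAV939 (log2 fold change -1.12, SE 0.20, edgeR adjusted p = 0.00404) and 1.80-fold lower with IWR-1 (-0.85, SE 0.20, adjusted p = 0.00707). After knockdown the libraries were at 84.4, 53.3 and 89.2 CPM against 115, 96.5 and 113 CPM in siCtrl. These groups did not overlap, yet the difference missed the threshold (-0.52, SE 0.19, adjusted p = 0.0998), and it passed with the replicate block (-0.54, adjusted p = 0.0142) and without siTnks/2 replicate 2 (-0.32, adjusted p = 0.0415).

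*Adamts9*, a protease of versican and aggrecan, was the member called after knockdown. It rose from 52.0, 36.4 and 42.6 CPM in siCtrl to 57.4, 60.0 and 61.6 CPM in siTnks/2, a 1.37-fold difference without overlap (log2 fold change 0.45, SE 0.12, edgeR adjusted p = 0.0488; 0.46 and 0.0269 with the replicate block). The call sat at the threshold: it was lost in 5 of 6 fits that left out a library, whose log2 fold changes stayed between 0.34 and 0.48 in those 5 (0.44 without siTnks/2 replicate 2), and under upper-quartile scaling (adjusted p = 0.0535). With the inhibitors *Adamts9* was at 54.3 to 73.9 CPM against 61.9 to 74.3 CPM in DMSO, and both groups overlapped DMSO. The 95% interval of its log2 fold change was -0.32 to 0.22 with XAV939 and -0.46 to 0.08 with IWR-1.

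*Adamts2*, the enzyme that removes the amino-terminal propeptide from fibrillar procollagens, fell with both inhibitors. DMSO libraries were at 57.5, 54.9 and 72.6 CPM, XAV939 libraries at 29.5, 41.1 and 42.4 CPM and IWR-1 libraries at 30.1, 35.3 and 50.6 CPM. Both treated groups lay below DMSO in edgeR's test, by -0.71 on the log2 scale for XAV939 (SE 0.20, adjusted p = 0.0354) and by -0.67 for IWR-1 (SE 0.20, adjusted p = 0.0238). The XAV939 call was lost in 5 of 9 fits that left out a library and the IWR-1 call in 3 of 9, with adjusted p-values up to 0.118 and 0.0937, and both held with the replicate block. Knockdown libraries were at 45.5, 18.8 and 43.96 CPM against 51.01, 35.6 and 54.5 CPM in siCtrl. These groups overlapped, and the log2 fold change of -0.38 (95% interval -1.16 to 0.40) was -0.08 without siTnks/2 replicate 2.

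*Adamts12*, which can cut the cartilage protein COMP, was the scarcest protease of the 6, at 47 to 211 counts per library. It ranged over 1.37 to 3.58 CPM in DMSO, 1.35 to 2.19 CPM with XAV939, 2.22 to 3.54 CPM with IWR-1, 3.77 to 6.47 CPM in siCtrl and 2.28 to 5.78 CPM in siTnks/2. The groups overlapped in each comparison with a control, and the 95% intervals of the log2 fold change were -1.004 to 0.58, -0.49 to 1.05 and -1.23 to 0.44 for XAV939, IWR-1 and knockdown. The knockdown value of -0.39 was -0.10 without siTnks/2 replicate 2.

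**Figure D2:**
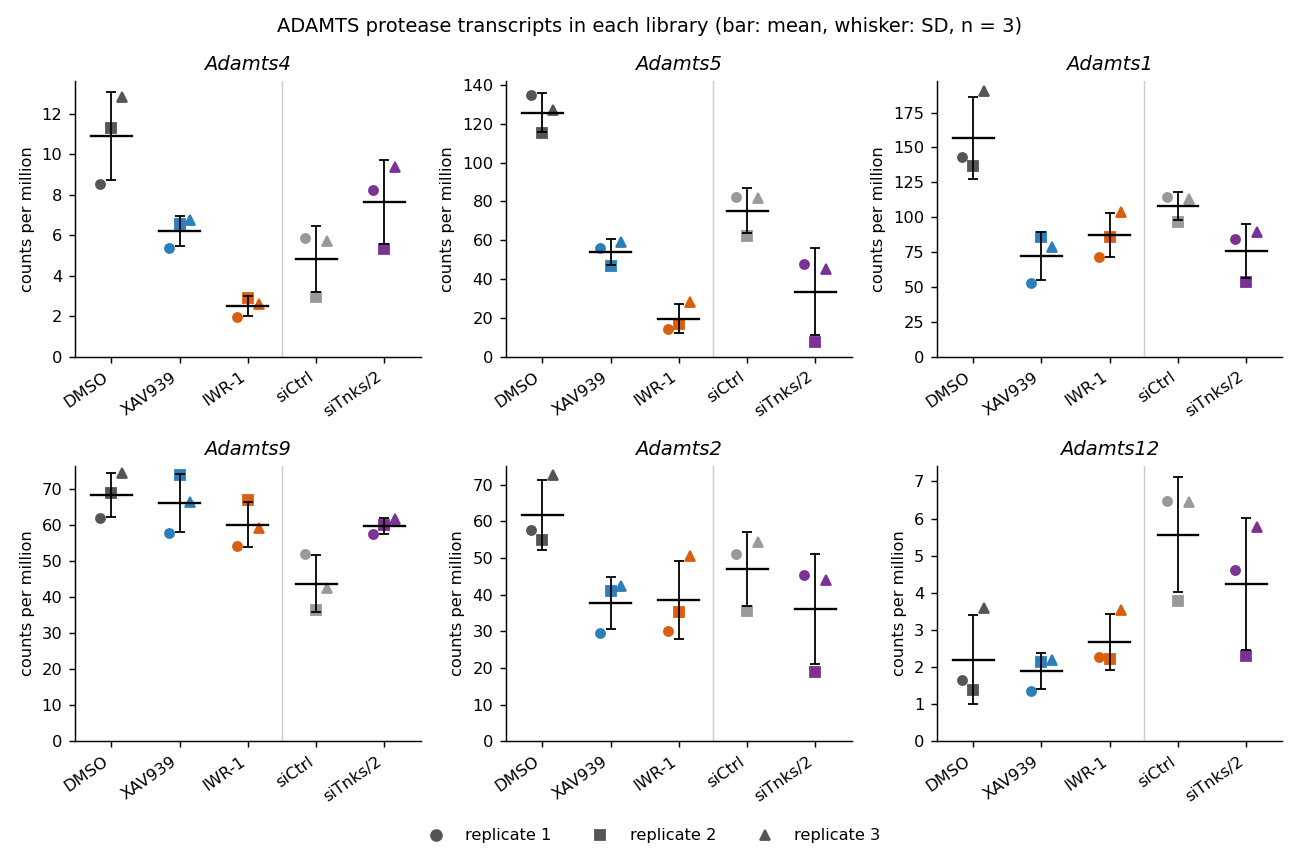
CPM (y axis, from 0) of the 6 ADAMTS proteases in each of the 15 libraries (x axis, 5 groups of 3), with marker shape for the replicate number, a bar for the mean and a whisker for the SD. *Adamts5* steps down from 115 to 135 CPM in DMSO to 14.0 to 28.1 CPM with IWR-1, and siTnks/2 replicate 2 stands at 7.67 CPM.

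*Timp3* was the member that rose with IWR-1. It was at 724, 652 and 884 CPM in DMSO, at 594, 442 and 703 CPM with XAV939 and at 3102, 2456 and 3119 CPM with IWR-1. Every IWR-1 library lay above every other drug library by more than the whole spread of those libraries, whereas XAV939 and DMSO overlapped. The difference from DMSO was 3.84-fold with IWR-1 (log2 fold change 1.94, SE 0.19, edgeR adjusted p = 2.97e-05). XAV939 libraries differed from DMSO by -0.38 on the same scale (SE 0.19, adjusted p = 0.188), and with the replicate block it was -0.39 (SE 0.10, adjusted p = 0.0131). In the siRNA table *Timp3* was at 4865, 4611 and 5134 CPM in siCtrl and at 4645, 4286 and 4893 CPM in siTnks/2, with a 95% interval of -0.31 to 0.16. The overlapping gene *Syn3* was at 0.1501 to 0.535 CPM in all libraries and was not called in any comparison.

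*Timp1*, the inducible inhibitor of most secreted metalloproteinases, went down with IWR-1. It stood at 1802, 1661 and 1215 CPM in DMSO, at 1370, 892 and 1092 CPM with XAV939 and at 821, 605 and 711 CPM with IWR-1. IWR-1 libraries lay below all DMSO and XAV939 libraries, and XAV939 overlapped DMSO. The difference from DMSO was 2.19-fold with IWR-1 (log2 fold change -1.13, SE 0.20, edgeR adjusted p = 0.00113). With XAV939 it was -0.48 (SE 0.20, adjusted p = 0.116), or -0.49 (adjusted p = 0.0162) with the replicate block. Knockdown libraries, at 399, 441 and 400 CPM, lay above the siCtrl libraries at 346, 347 and 378 CPM, a log2 difference of 0.21 in edgeR (SE 0.07, adjusted p = 0.0841), or 0.16 without siTnks/2 replicate 2.

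The host gene of *Timp1*, *Syn1*, was called in the same directions as *Timp1* lay: its log2 fold changes were 0.75 (SE 0.19) after knockdown, -1.01 (SE 0.19) with XAV939 and -1.59 (SE 0.20) with IWR-1, at edgeR adjusted p-values of 0.0393, 0.00514 and 0.000125. *Syn1* was at 2.38 to 8.20 CPM, against 346 to 1802 CPM for *Timp1*, and whether reads of *Timp1* enter the *Syn1* counts was not tested. *Syn2*, host of *Timp4*, had too few reads to be tested.

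*Timp2*, which besides inhibiting MMP2 helps to activate it at the cell surface, was lower with both inhibitors. It was at 1513, 1451 and 1480 CPM in DMSO, at 1194, 1057 and 1183 CPM with XAV939 and at 974, 955 and 1110 CPM with IWR-1. Both inhibitor groups lay below DMSO and overlapped each other. In edgeR, IWR-1 lowered it by a log2 fold change of -0.55 (SE 0.11) at an adjusted p of 0.00292. The XAV939 value was -0.37 (SE 0.11) at an adjusted p of 0.0433. The XAV939 call was lost in 8 of 9 fits that left out a library, in which the log2 fold change lay between -0.41 and -0.32, under upper-quartile scaling and when only DMSO and XAV939 were fitted. In the siRNA table *Timp2* was at 1351, 1161 and 1423 CPM against 1276, 831 and 1275 CPM after knockdown, and these groups overlapped. The log2 fold change was -0.22 (95% interval -0.64 to 0.20), and -0.04 without siTnks/2 replicate 2. *Timp4*, a TIMP best known from heart and brain, had 1 to 9 counts per drug library, 2 to 7 in siCtrl and 8 to 25 in siTnks/2.

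**Figure D3:**
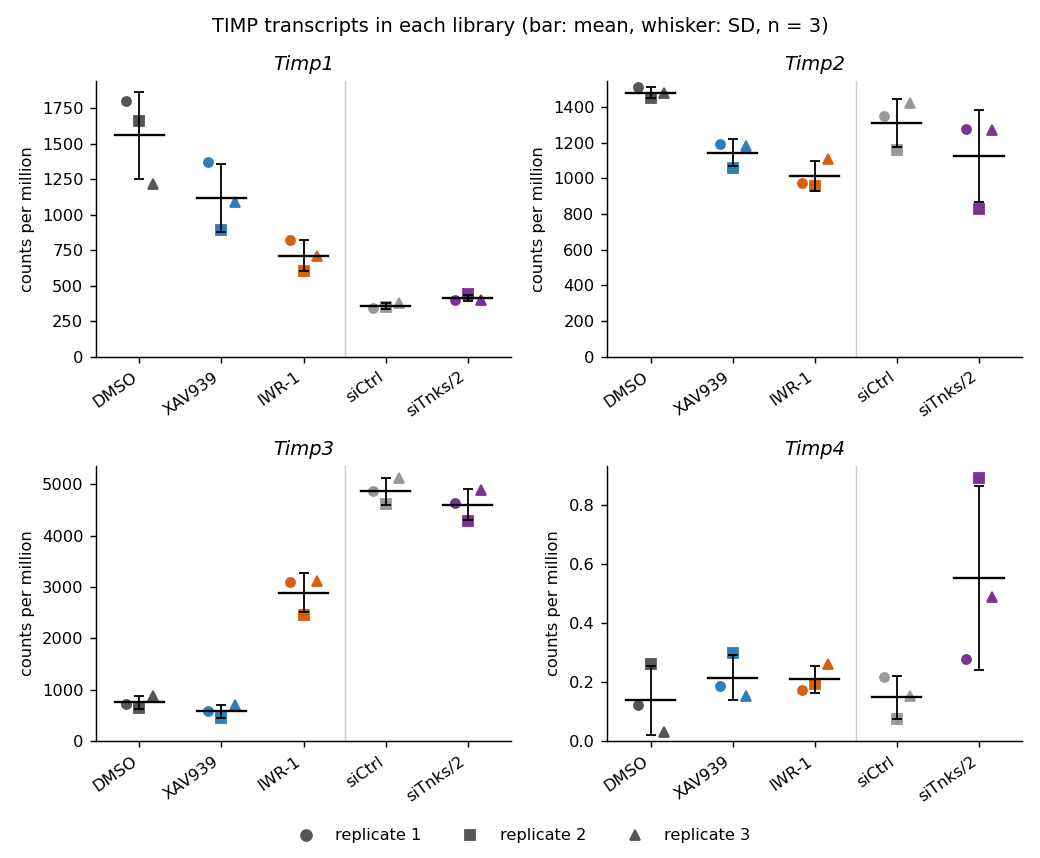
CPM (y axis, from 0, a separate scale in each panel) of the 4 TIMP genes in each library (x axis, 5 groups of 3), with marker shape for the replicate number, a bar for the mean and a whisker for the SD. The IWR-1 libraries reach 2456 to 3119 CPM of *Timp3*, above the 442 to 884 CPM of the other drug libraries, while their *Timp1* is the lowest of that table.

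XAV939 and IWR-1 were given at the same dose for the same time and could be compared directly, without the DMSO libraries they share as control. Of 9 members compared, 4 differed, against 17.6% of 13873 genes, and the groups did not overlap for 5 of 9, against 37.6%. With IWR-1, *Adamts4* was 2.47-fold lower (log2 fold change -1.30, SE 0.20, edgeR adjusted p = 0.00169) and *Adamts5* 2.74-fold lower (-1.45, SE 0.22, adjusted p = 0.00145) than with XAV939. *Timp3* was 4.99-fold higher (2.32, SE 0.20, adjusted p = 5.89e-05). *Timp1* was 1.57-fold lower (-0.65, SE 0.20, adjusted p = 0.043), a call lost in 7 of 9 fits that left out a library, with adjusted p-values up to 0.17. For the other tested members a difference was not detected, with 95% intervals of -0.18 to 0.71 for *Adamts1*, -0.41 to 0.49 for *Adamts2*, -0.41 to 0.13 for *Adamts9*, -0.29 to 1.28 for *Adamts12* and -0.42 to 0.07 for *Timp2*.

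The effect of each inhibitor was also set against the effect of knockdown, each relative to its own control, in a model over all 15 libraries. The IWR-1 effect differed for 4 of 9 members, against 24.4% of 14271 genes: it was lower for *Adamts4* (difference in log2 fold change -2.77, SE 0.37, edgeR adjusted p = 0.000125), *Timp1* (-1.35, SE 0.23, adjusted p = 8e-04) and *Adamts9* (-0.64, SE 0.18, adjusted p = 0.0196), and higher for *Timp3* (2.01, SE 0.24, adjusted p = 4.1e-05). The *Adamts9* difference had an adjusted p of 0.052 without IWR-1 replicate 1. For *Adamts5* it was -1.51 (SE 0.61, adjusted p = 0.0848), and it passed with the replicate block (-1.28, adjusted p = 0.0388) and without siTnks/2 replicate 2 (-1.99, adjusted p = 0.000342). For *Timp2* it was -0.34 (SE 0.21, adjusted p = 0.255), and without siTnks/2 replicate 2 it was called (-0.53, adjusted p = 0.0226).

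The XAV939 effect differed from that of knockdown for *Adamts4* (-1.47, SE 0.36, edgeR adjusted p = 0.0173), 1 of 9 members against 13.5% of all genes. With the replicate block 4 members were called, against 28.2% of all genes, with *Adamts1* (-0.60, adjusted p = 0.0289), *Adamts9* (-0.53, adjusted p = 0.0164) and *Timp1* (-0.72, adjusted p = 0.00894) added. For *Adamts5* the difference was -0.06 with an interval of -1.36 to 1.23, so that similar effects are not shown. The table, the carrier, the exposure time and the control differ between the knockdown and the inhibitors, and these cannot be told apart from the kind of perturbation.

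Levels of different genes were compared only per length, as CPM per kilobase of exon (RPKM). In DMSO the order of mean RPKM was *Timp1* (1756 ± 345, SD, n = 3), *Timp2* (380 ± 7.91), *Timp3* (92.5 ± 14.6), *Adamts1* (29.6 ± 5.58), *Adamts5* (11.7 ± 0.914), *Adamts2* (6.61 ± 1.02), *Adamts9* (4.54 ± 0.412), *Adamts4* (2.27 ± 0.452), *Adamts12* (0.201 ± 0.111) and *Timp4* (0.0235 ± 0.0197), and no neighbours in it overlapped. With IWR-1, *Timp3* (355 ± 46.4) stood above *Timp2* (260 ± 21.7) and *Adamts5* (1.82 ± 0.691) had dropped below *Adamts2* and *Adamts9*, whose ranges overlapped. With XAV939 the ranges of *Adamts5* and *Adamts9* overlapped, as did those of *Adamts9* and *Adamts2*. In siCtrl *Timp3* came first (598 ± 32.1), above *Timp1* (402 ± 20.4) and *Timp2* (337 ± 34.7), and the ranges of *Adamts5* and *Adamts2* overlapped. In siTnks/2 each of *Adamts9*, *Adamts2*, *Adamts5* and *Adamts4* overlapped its neighbour.

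*Timp3* made up 3.55%, 3.45% and 5.85% of the summed TIMP level per length in the DMSO libraries, 3.79%, 4.08% and 5.33% with XAV939 and 24.5%, 24.6% and 26.1% with IWR-1. It was 44.4% to 45.1% in siCtrl and 42.3% to 43.6% in siTnks/2. The IWR-1 libraries thus lay between the other drug libraries and the siRNA libraries. The summed level of the 6 proteases was 51.7, 49.3 and 63.5 RPKM in DMSO, 23.4, 31.4 and 30.9 RPKM with XAV939 and 22.3, 26.8 and 32.4 RPKM with IWR-1. These sums are similar for the 2 inhibitors, but *Adamts5* held 13.7% to 22.1% of the sum with XAV939 and 5.80% to 8.04% with IWR-1, beside 18.6% to 24.1% in DMSO. These shares are descriptions and were not tested, and they depend on the length used. Per kilobase of the longest transcript, mean *Timp3* was 160, 613 and 1031 RPKM in DMSO, IWR-1 and siCtrl. With all exons, as here, it was 92.5, 355 and 598 RPKM, while mean *Timp1* in DMSO was 1766 and 1756 RPKM by the 2 lengths.

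**Figure D4:**
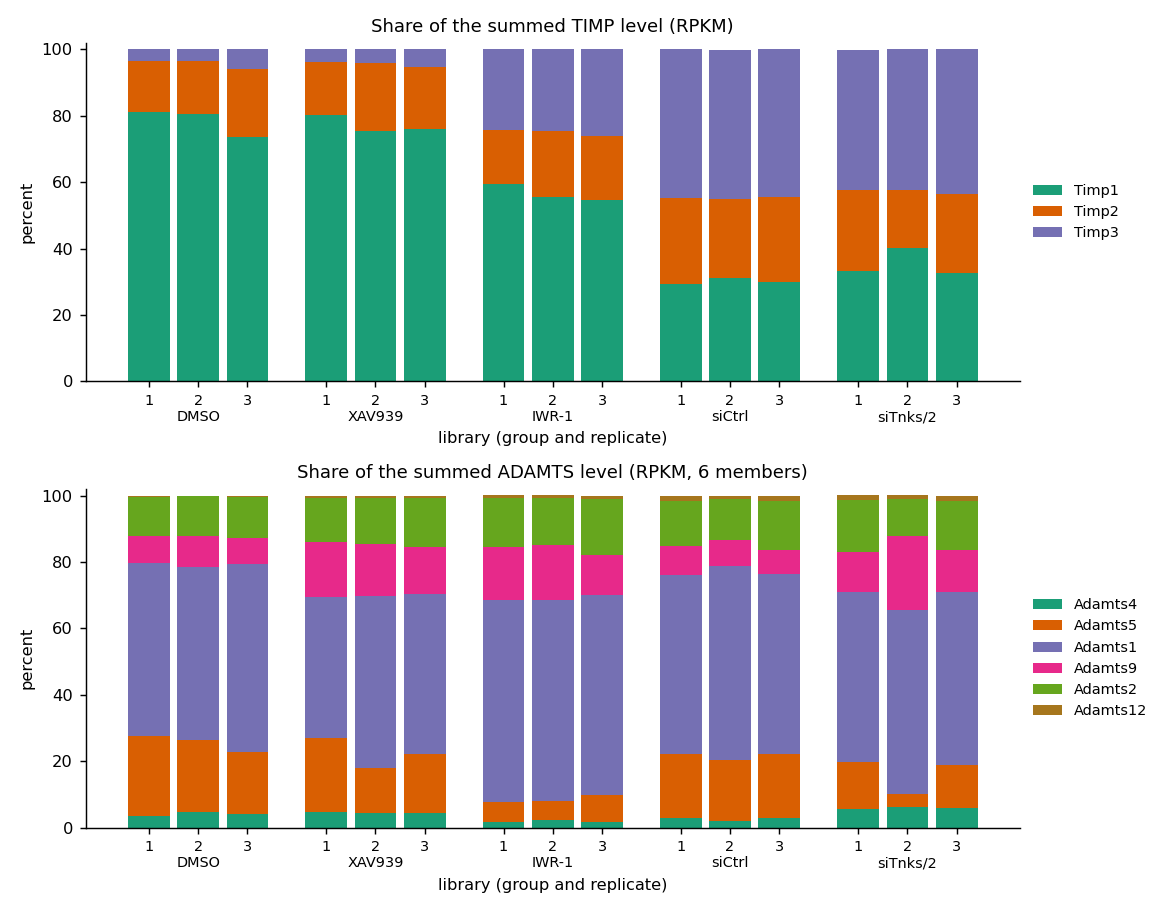
Percent (y axis) of the summed RPKM of 3 TIMP genes (top) and of the 6 ADAMTS proteases (bottom) held by each gene, for each library (x axis, replicates 1 to 3 of 5 groups). *Timp3* holds 3.45% to 5.85% in DMSO and XAV939 libraries, 24.5% to 26.1% with IWR-1 and 42.3% to 45.1% in the siRNA table.

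Other genes of the same system were taken from lists that share no gene with the members. Of 13 further ADAMTS proteases, 7 could be tested in the drug table and 8 in the siRNA table. The shares called among all genes, against which the counts of each list stand, were 36.4% with IWR-1, 17.4% with XAV939 and 18% after knockdown, and 47.5%, 33.4% and 34.6% with the replicate block. With IWR-1, *Adamts7*, a protease of COMP, fell (log2 fold change -1.59, SE 0.17, edgeR adjusted p = 4.15e-05), as did *Adamts3*, a procollagen protease like *Adamts2* (-1.46, SE 0.24), while *Adamts17* (1.78, SE 0.37) and *Adamts14* (0.83, SE 0.13) rose. With XAV939, *Adamts3* fell (-0.86, SE 0.23) and *Adamts10* rose (0.55, SE 0.10). After knockdown, *Adamts17* (0.77, SE 0.19) and *Adamts14* (0.60, SE 0.11) rose and 0 fell, and with the replicate block 4 rose and 0 fell.

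Of the ADAMTS substrates, 4 of 9 tested rose and 3 fell with IWR-1, against 36.4% of all genes called, with a median log2 fold change of -0.12. *Acan*, which encodes aggrecan, was 569 to 890 CPM in DMSO, 1413 to 2372 CPM with XAV939 and 5403 to 6830 CPM with IWR-1, without overlap, and its log2 fold change was 1.21 (SE 0.23) with XAV939 and 2.95 (SE 0.24) with IWR-1. *Col2a1*, the main collagen of cartilage, rose with IWR-1 (1.66, SE 0.22), while *Vcan*, which encodes versican, fell (-1.76, SE 0.48). With XAV939, 2 of 9 rose and 3 fell, against 17.4% of all genes, among them the fibrillar collagens *Col3a1* (-1.18, SE 0.22) and *Col1a1* (-1.16, SE 0.20), and 3 rose and 5 fell with the replicate block, against 33.4%. After knockdown 4 of 10 rose and 0 fell, against 18% of all genes, among them the lecticans *Ncan* (1.64, SE 0.37), *Bcan* (1.61, SE 0.07) and *Acan* (0.96, SE 0.18), and with the replicate block 5 rose and 2 fell, against 34.6%. *Acan*, *Col2a1* and *Comp* also stand in the chondrocyte list and *Col1a1*, *Col1a2* and *Col3a1* in the fibroblast list.

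Of 21 tested MMP and ADAM metalloproteinases in the list of TIMP targets, 13 fell with IWR-1 and 2 rose, against 36.4% of all genes called. Their median log2 fold change was -0.68. Whether TIMPs inhibit each of the 21 was not checked. The stromelysins *Mmp3* and *Mmp10* and the macrophage elastase *Mmp12* fell most. *Mmp3* went from 9610 to 10230 CPM in DMSO to 965 to 1406 CPM with IWR-1 (-3.13, SE 0.21), and the log2 fold changes of *Mmp12* and *Mmp10* were -3.11 (SE 0.24) and -2.69 (SE 0.26). With XAV939, 3 of 21 fell and 1 rose, a share of 19% that is near the 17.4% of all genes. *Mmp12* (-0.97, SE 0.21), *Mmp10* (-0.79, SE 0.23) and *Adam9* (-0.70), the last named after its value was seen, were lower, and the gelatinase *Mmp9* was higher (0.86, SE 0.16). With the replicate block 6 fell and 1 rose, 7 of 21 against 33.4% of all genes. After knockdown, 4 rose and 2 fell, against 18% of all genes, with *Mmp9* (2.70, SE 0.61), *Mmp10* (2.31, SE 0.24) and the collagenase *Mmp13* (0.98, SE 0.10) as the largest, and with the replicate block 7 rose and 9 fell, against 34.6%. *Mmp9* was at 0.306 to 0.443 CPM in siCtrl and 1.04 to 5.10 CPM in siTnks/2.

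Among 8 genes that process or clear ADAMTS enzymes, 2 rose and 2 fell with IWR-1, against 36.4% of all genes, and 3 rose and 0 fell after knockdown, against 18% (4 and 2 with the replicate block, against 34.6%). Of the 4 proprotein convertases listed, *Pcsk5* fell with IWR-1 (-2.36, SE 0.33, edgeR adjusted p = 0.000299) and rose after knockdown (1.08, SE 0.25, adjusted p = 0.0307). *Pcsk6* rose in both, by 1.73 (SE 0.21) with IWR-1 and 1.54 (SE 0.18) after knockdown, while *Furin* (-0.08) and *Pcsk7* (-0.13) were not called with IWR-1. *Sdc4*, a cell surface proteoglycan that binds ADAMTS5, fell with IWR-1 (-0.70, SE 0.12). With XAV939 edgeR called 0 of these 8, and with the replicate block 1 was called higher and 2 lower, against 33.4% of all genes. At an unadjusted p under 0.05 there were 2, and the share of all genes at that limit was not counted.

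**Figure D5:**
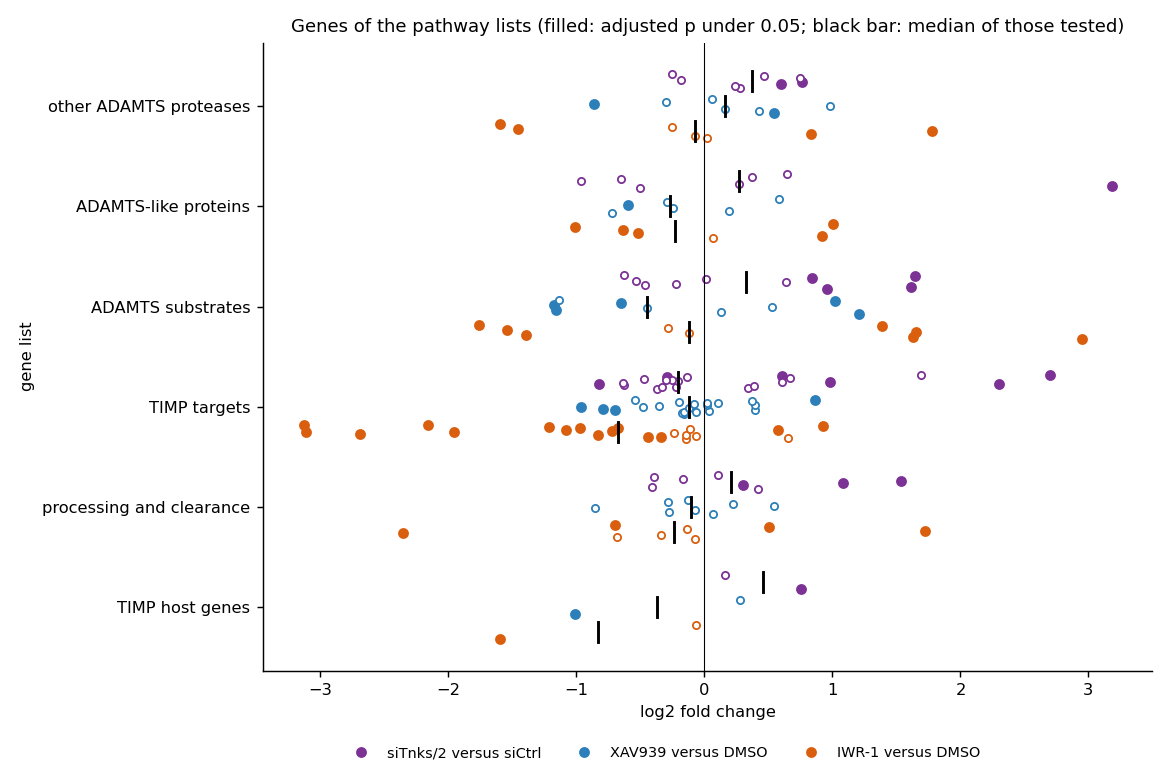
Log2 fold change (x axis) of each tested gene in 6 lists of related genes (y axis), for knockdown (purple), XAV939 (blue) and IWR-1 (orange), with filled points for called genes and a black bar for the median. For the listed TIMP targets the median with IWR-1 is -0.68, with 13 filled points left of 0 and 2 right of it.

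Across the 15 libraries, with each gene's log2 CPM centred on the mean of its table, *Adamts5* and *Timp2* had the most similar pattern among the tested members (Pearson's r = 0.954), followed by *Adamts1* and *Adamts2* (r = 0.907). *Adamts4* and *Timp3* were the most opposed (r = -0.73), and the neighbours *Adamts1* and *Adamts5* had r = 0.727. Among 13323 genes the closest to each member was *Pde5a* for *Adamts5* (r = 0.98), *Itpr1* for *Adamts12* (r = 0.984), *Fstl1* for *Timp2* (r = 0.977), *Acbd4* for *Timp1* (r = 0.966), *Jcad* for *Adamts2* (r = 0.965), *Riok2* for *Timp3* (r = 0.962), *Lgi2* for *Adamts4* (r = 0.962), *Sun1* for *Adamts1* (r = 0.953) and *Txnip* for *Adamts9* (r = 0.889). These values describe libraries that share treatments and depth.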

How the data were processed

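Total RNA of 15 cultures was sequenced from stranded poly(A) libraries. Per the labels, the authors used Trimmomatic 0.32 for trimming, TopHat2 2.0.13 for alignment against mm10 and HTSeq 0.6.1p1 for counting. The annotation and strand setting are not given in the sources used here. The deposited values are raw counts, 24134 Entrez gene IDs per table, of which 24051 matched a symbol and 83 did not. Reads carry no molecular identifiers, so PCR copies of a molecule were not told apart from separate molecules. Totals were 26857070 to 36615194 counts per library, and genes with few counts at this depth, such as *Timp4*, were not tested in the main fits. Replicates are 3 per group.

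Counts were fitted in R 4.3.3 with edgeR 4.0.16 (filterByExpr, TMM scaling, quasi-likelihood F test, prior count 2), 1 model per table. Differences between effects used 1 model over 15 libraries and 14271 genes. P-values were adjusted across the whole table by the Benjamini-Hochberg method. The SE given with edgeR values is the absolute log2 fold change divided by the square root of its F statistic. It is an approximation and is least reliable for values near 0. The 95% intervals use this SE and the degrees of freedom of the test. CPM used TMM-scaled totals, and RPKM divided CPM by the union of GENCODE exons. Steps were tested on counts simulated on the drug table, with the same spread set for all genes. There edgeR called 46% of 50 genes raised 1.5-fold, 100% of 50 raised 2-fold and 96% of 50 lowered to 0.5-fold. A change of 1.5-fold or less can thus go uncalled. The simulation did not cover the siRNA table, where larger changes went uncalled without the block. *Adamts5* after knockdown, with a log2 fold change of -1.17 (SE 0.56), was such a case. The alternatives were RLE and upper-quartile scaling, no filter, at least 10 counts in every library, DESeq2 1.42.0, the replicate block, only the groups compared, and leaving out each library.

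Replicate numbers come from the column names. After group means were removed, libraries with the same number correlated by 0.143 to 0.553 (9 drug pairs) and 0.424 to 0.519 (3 siRNA pairs). Libraries of different groups and numbers correlated by -0.489 to 0.318 (18 drug pairs) and -0.409 to 0.0972 (6 siRNA pairs). The drug ranges thus overlapped and the siRNA ranges did not. In the siRNA table libraries of the same number were more alike, and the knockdown calls without the block leave this out. The main tests used the group only and ignored the replicate number, which entered only as the block given beside them.

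Named were all members, *Tnks*, *Tnks2*, up to 3 called genes of each related list by size of change, and for each member the gene with the highest r. Members and lists were chosen with earlier results of these data known. One gene is not reported here.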

Additional observations from a re-analysis of the deposited data

Results flagged for a closer look

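Differences between the effect of an inhibitor and the effect of knockdown, by an interaction term in edgeR's quasi-likelihood test, drew attention to 4 members. For *Adamts4* the effects pointed apart, with log2 fold changes of -0.80 (XAV939), -2.11 (IWR-1) and 0.65 (knockdown), and the differences from knockdown were -1.47 (SE 0.36) for XAV939 and -2.77 (SE 0.37) for IWR-1. For *Timp3* the difference was 2.01 (SE 0.24), between 1.94 with IWR-1 and -0.08 after knockdown. For *Timp1* it was -1.35 (SE 0.23), between -1.13 and 0.21. For *Adamts9* it was -0.64 (SE 0.18), between -0.19 and 0.45. Groups held 3 libraries each, so single libraries far from their group were not tested for.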

How the results depend on the processing

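Of 918 values of single members under the alternatives, 851 kept their direction and their side of the threshold, 33 lost a call, 20 gained one and 14 changed sign, none of these 14 a called value. The count of 7 called members with IWR-1 held under all scalings, filters, DESeq2 and the replicate block, as did the 4 of IWR-1 against XAV939. Leaving out single libraries gave 6 to 7 called members for IWR-1, 2 to 5 for XAV939, 0 to 2 for knockdown, 3 to 4 for IWR-1 against XAV939, 3 to 6 for the IWR-1 effect minus that of knockdown and 1 to 2 for the XAV939 effect minus that of knockdown. The lowest XAV939 count, 2, came without XAV939 replicate 1, and it was 3 without DMSO replicate 1, XAV939 replicate 2 or IWR-1 replicate 2. The knockdown count of 1 was 0 under upper-quartile scaling, 3 by DESeq2 (*Adamts1*, *Adamts9* and *Timp1*) and 4 with the replicate block. It was 0 without siCtrl replicate 2 or 3 or siTnks/2 replicate 1 or 3, and 2 without siTnks/2 replicate 2. Of all genes, DESeq2 called 3166 of 13672 after knockdown. Without siTnks/2 replicate 2, edgeR called 2868 of 13796. The XAV939 effect minus that of knockdown gave 2 members by DESeq2, which called 2433 of 14271 genes, and 4 with the replicate block. The replicate block lost no call of a member. The causes were not tested.

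Signs changed for uncalled values near 0. Under upper-quartile scaling *Adamts9* with XAV939 became 0.00087, and the *Adamts5* difference between XAV939 and knockdown became 0.0028, or 0.20 with the replicate block. Leaving out a library gave -0.14 to 0.039 for *Adamts9* with XAV939, -0.46 to 0.30 for *Adamts12* with XAV939, -0.20 to 0.20 for *Adamts2* between the inhibitors, -0.53 to 0.28 for that *Adamts5* difference and -0.12 to 0.70 for the same difference of *Adamts12*. Upper-quartile scaling moved the share of higher calls among all genes from 43.5% to 53.3% with XAV939 and from 40.1% to 52.7% for its difference from knockdown. With the replicate block the calls among all genes went from 2459 to 4727 after knockdown, from 2416 to 4630 with XAV939, from 2442 to 4258 between the inhibitors and from 1922 to 4018 for the XAV939 effect minus that of knockdown. Leaving out single libraries gave 608 to 2868, 1322 to 2484, 1343 to 3044 and 1241 to 2159 calls for these 4 comparisons, and XAV939 with DMSO alone gave 1569. With the longest transcript in place of all exons, 8 of 10 members kept their rank in DMSO (*Adamts9* at 8.52 and *Adamts2* at 8.49 RPKM changed places) and 10 in siCtrl. *Timp4* was too scarce at this depth to compare.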

Other observations

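The ADAMTS-like proteins, which share the thrombospondin repeats of the family but lack the protease domain, changed with IWR-1 in 5 of 6 genes tested, against 36.4% of all genes. *Thsd4* (log2 fold change 1.01, SE 0.18) and *Adamtsl3* (0.92, SE 0.29) rose, and *Papln* (-1.01, SE 0.36) and 2 others fell. With XAV939 only *Adamtsl5* was called (-0.60, SE 0.13), and 3 were called with the replicate block. After knockdown *Adamtsl2* was called, at 0.326 to 1.96 CPM against 0 to 0.0739 CPM in siCtrl, a level of a few reads in the controls, and 3 rose and 2 fell with the replicate block.

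Between the inhibitors, edgeR called 9 of 21 listed TIMP targets lower and 1 higher with IWR-1 than with XAV939, against 17.6% of all genes in either direction. With the replicate block 13 were lower and 3 higher. *Mmp9* differed most (log2 fold change -3.02, SE 0.18), since it lay above DMSO with XAV939 and below it with IWR-1: it was at 11.8 to 16.2 CPM in DMSO, 22.0 to 27.9 CPM with XAV939 and 2.44 to 3.34 CPM with IWR-1. *Mmp3* (-2.59, SE 0.20) and *Mmp12* (-2.15, SE 0.24) were next. Among the further proteases, *Adamts7* was at 26.6 to 36.4 CPM with XAV939 and 7.62 to 10.9 CPM with IWR-1 (-1.65, SE 0.17), beside 26.6 to 31.2 CPM in DMSO.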
